A study of Arabidopsis thaliana with 6 samples.

Results

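Pectin methylesterases are cell wall enzymes, and 58 Arabidopsis thaliana loci of the family, with or without an inhibitor-like domain, were looked for on Affymetrix ATH1 arrays. A locus was kept where the platform annotation paired a probe set (a group of short oligonucleotides read as 1 value) with that gene alone. This held for 39 of the 58 loci, out of 13333 genes of the whole array that could be named in this way. Each of the 39 was read by 1 probe set. The other 19, among them PME3, PME5, PME17, QRT1 and VGD1, were not analysed here. Most of these 19 have a gene symbol in RefSeq, whereas most of the 39 have only a locus tag. The 39 are thus not an even sample of the family.

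Homogalacturonan, the main pectin of the primary wall, is secreted in a methyl-esterified form. Pectin methylesterases remove the methyl groups in the wall and release methanol. The acidic stretches they leave can bind calcium and stiffen the wall, or they can be cut by polygalacturonases and pectate lyases, which loosens it. Many family members are made with an N-terminal domain that resembles the separate pectin methylesterase inhibitor proteins and is cut off by subtilisin-like proteases before the enzyme reaches the wall.

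The study set 3 arrays labelled ASL9-ox, a transgenic line that overexpresses ASL9, against 3 arrays labelled wildtype, of the accession Col-0. ASL9 (AT1G16530) encodes a transcription factor of the plant-specific LBD family. All 6 samples were total RNA of seedlings aged 2 weeks, grown upright on Murashige and Skoog agar from bleach-sterilized seed, with aerial parts as the labelled tissue. The labels name neither the promoter of the transgene, nor the number of independent transgenic lines, nor the accession they were made in. They also do not state that samples of 1 group are separate cultures, and p-values therefore cover only the spread among the 3 samples, which can be technical.

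Values were MAS5 signals, linear intensities scaled on every array to the same trimmed mean. Of the 22810 probe sets, 36.8% to 37.9% read below 16 on each array. Arrays of the same group correlated at 0.972 to 0.991 and arrays of different groups at 0.891 to 0.930 (Pearson r of log2 values; probe sets of an array are not independent). The annotation used paired 0 probe sets with ASL9. The overexpressed gene could thus not serve to check the labels, on which all directions given here depend. Groups were compared by limma on log2(signal + 16) over 17059 probe sets, the dimmest 25% having been left out, with Benjamini-Hochberg adjustment over all of them. A gene is said to have risen or fallen where ASL9-ox was above or below wildtype with an adjusted p under 0.05. Because of the added 16, log2 fold changes are too small for dim genes. The number of arrays limits the precision.

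Most of the measured family was dim in these seedlings. On no array did 24 of the 39 members reach a signal of 16, while 8 members did so on all 6 arrays and the remaining 7 on some. Between 10 and 13 members reached 16 on any single array. The filter on dim probe sets left 16 members that could be tested, and 23 that could not. The deposited values used here carried no detection calls, and dim values could not be told from background.

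**Figure D1:**
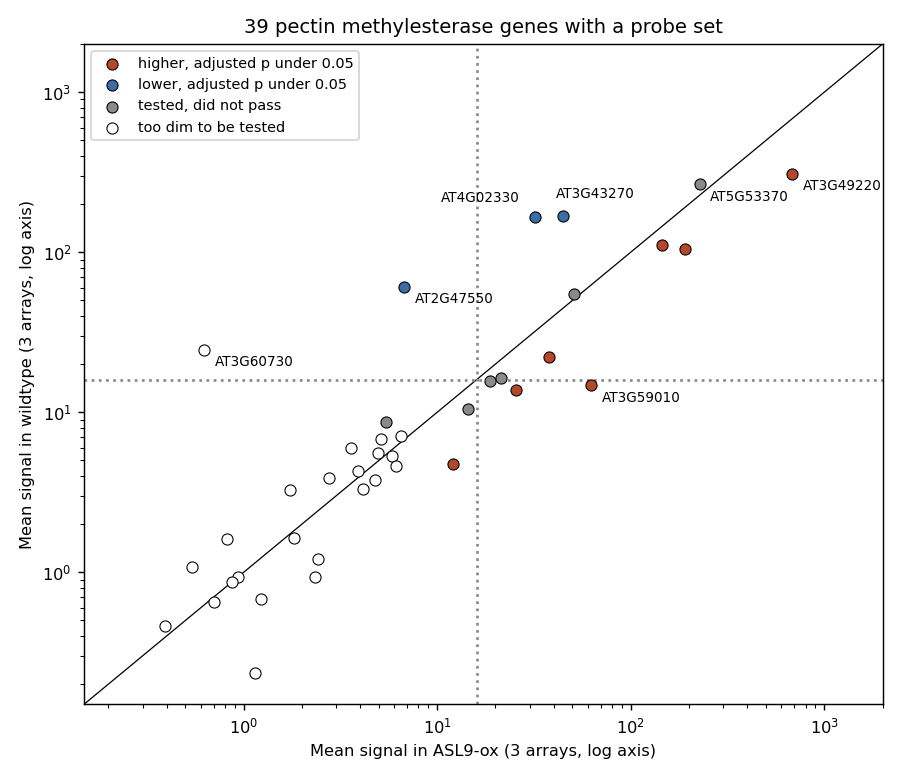
Mean MAS5 signal of each of the 39 measured pectin methylesterase genes in ASL9-ox (x axis) and wildtype (y axis), 3 arrays each, on log axes, with dotted lines at a signal of 16 and a diagonal of equal signal. The 3 genes that fell lie above the diagonal, the 7 that rose lie below it, and the 23 untested genes crowd the dim corner apart from AT3G60730.

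Of the 16 tested members, 7 rose and 3 fell, and 6 did not pass. The 3 falls were all larger than 2-fold on the log2(signal + 16) scale, whereas 2 of the 7 rises were. Over all probe sets tested 41.6% passed, 24.6% rose and 17.0% fell. Against these shares, 62.5% of the tested members passed, 43.8% rose and 18.8% fell. The share that fell thus lay near that of all probe sets. Rises of at least 2-fold made up 2.61% of all probe sets and falls of that size 4.53%. The median log2 fold change was 0.20 over the 16 tested members and 0.08 over all probe sets, and 10 of the 16 estimates were above 0. There was no overlap between the groups for 12 of the 16, against 54.0% of all probe sets. A member bright in 1 group only could enter the test through that group, so these counts describe the tested members and not the family.

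AT4G02330, with the RefSeq symbol ATPMEPCRB and the synonym PME41, was 1 of the 3 members that fell. Its enzyme is known from work on chilling tolerance and brassinosteroid signalling. Its signal was 29.5, 29.7 and 36.8 on the ASL9-ox arrays, against 150.3, 206 and 143 on the wildtype arrays. No ASL9-ox array came near the lowest wildtype one, and the mean was 5.20-fold higher in wildtype. The log2 fold change was -1.91 ± 0.13 (SE, limma adjusted p = 6.44e-06).

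AT3G43270 read 44.0, 45.1 and 44.3 on the ASL9-ox arrays and 144, 187 and 173 on the wildtype arrays. Its ASL9-ox values were nearly identical, with an SD of 0.557 around a mean of 44.5, while wildtype averaged 168 ± 22.0 (SD, n = 3 each). The mean was 3.77-fold higher in wildtype, and the log2 fold change was -1.60 ± 0.10 (SE, limma adjusted p = 3.33e-06).

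AT2G47550 was the only one of the 3 to read below 16 on any array. It read 7.16, 6.67 and 6.48 on the ASL9-ox arrays, against 49.3, 63.6 and 69.6 on the wildtype arrays. All ASL9-ox values lay below 16, so no linear fold is given, and its log2 fold change of -1.75 ± 0.12 (SE, limma adjusted p = 5.41e-06) depends on the 16 that was added. With a pseudocount of 1 it was -2.98, a larger fall than the -2.33 of AT4G02330, and with one of 64 it was -0.82, a smaller fall than the -1.25 of AT4G02330, so the order of the falls is not settled.

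AT3G59010, listed in RefSeq as PME61 and also as PME35, rose. Its enzyme is known to demethylesterify pectin in the stem and to contribute to its mechanical strength. The signal was 72.4, 60.8 and 54.2 on the ASL9-ox arrays, against 20.4, 11.5 and 12.2 on the wildtype arrays. The groups were well apart, although 2 of the 3 wildtype values lay below 16. The log2 fold change was 1.36 ± 0.14 (SE, limma adjusted p = 5.99e-05), and it ran from 0.68 with a pseudocount of 64 to 2.05 with a pseudocount of 1. It was the largest rise of the 16 tested members with 16 added, but with 64 added that of AT3G49220, at 1.01, was larger.

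AT3G49220 rose at signals far above 16, and its log2 fold change stayed between 1.01 and 1.24 under all alternatives. It read 747, 688 and 619.7 on the ASL9-ox arrays and 368, 292 and 266 on the wildtype arrays. Every ASL9-ox value was above every wildtype value, and the ratio of the means was 2.22. The log2 fold change was 1.12 ± 0.12 (SE, limma adjusted p = 8.40e-05).

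AT5G09760 gave 201, 202 and 169 on the ASL9-ox arrays, against 114, 94.5 and 104 on the wildtype arrays. The ratio of the means was 1.83, with no overlap, and the log2 fold change was 0.78 ± 0.10 (SE, limma adjusted p = 0.000231). AT5G64640 gave 35.96, 37.5 and 40.5 in ASL9-ox and 20.1, 18.8 and 27.2 in wildtype. Its ratio of means was 1.72, again without overlap, and the log2 fold change was 0.51 ± 0.11 (SE, limma adjusted p = 0.00508).

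**Figure D2:**
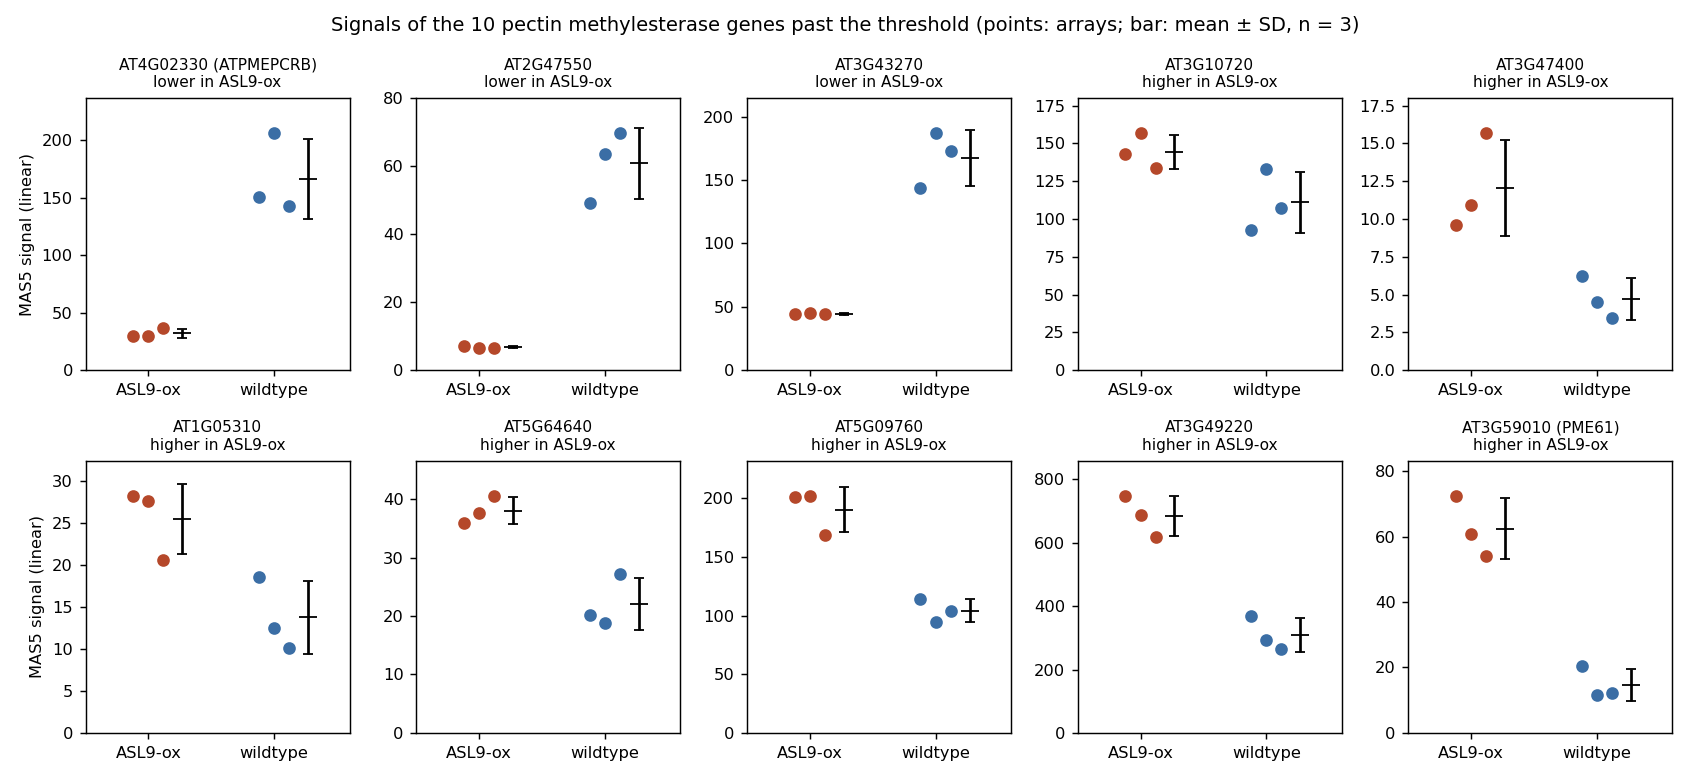
MAS5 signals on a linear axis that starts at 0 for the 10 pectin methylesterase genes that passed the threshold, 1 panel per gene, with 3 ASL9-ox arrays left and 3 wildtype arrays right in each panel (points) and the mean ± SD beside them. The groups do not overlap in any of the 10 panels, and for AT3G10720 the highest wildtype array, at 133, almost reaches the lowest ASL9-ox array, at 134.

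The other 3 rises were small. AT1G05310 read 28.2, 27.6 and 20.7 on the ASL9-ox arrays, against 18.6, 12.5 and 10.2 on the wildtype arrays, a log2 fold change of 0.48 ± 0.14 (SE, limma adjusted p = 0.0185). Its lowest ASL9-ox array lay just above its highest wildtype array. AT3G47400 read 9.59, 10.9 and 15.7 in ASL9-ox and 6.22, 4.51 and 3.43 in wildtype, a log2 fold change of 0.43 ± 0.13 (SE, limma adjusted p = 0.0248). It passed although no array reached 16. AT3G10720 read 143, 157 and 134 in ASL9-ox and 93.0, 133 and 107 in wildtype, a log2 fold change of 0.35 ± 0.12 (SE, limma adjusted p = 0.0411). The ratio of its means was 1.30.

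These 3 calls were lost when single arrays were left out. That of AT3G10720 was lost without any 1 of 5 arrays, all but wildtype replicate 2, and under 10 of 16 alternatives in all (limma adjusted p from 0.00754 to 0.214). That of AT1G05310 was lost without ASL9-ox replicate 1, without ASL9-ox replicate 2 and without wildtype replicate 3 (limma adjusted p from 0.00945 to 0.0691 over all alternatives), and that of AT3G47400 without ASL9-ox replicate 3, and without either of wildtype replicates 2 and 3 (0.0117 to 0.0824). When arrays were centred on the 9 hybridization control probe sets, all 3 missed the threshold, and 4 members rose and 3 fell. Such probe sets read bacterial and phage transcripts added at hybridization rather than to the RNA samples. The mean of these controls was 7.95, 7.98 and 8.10 on the ASL9-ox arrays and 8.01, 7.92 and 7.82 on the wildtype arrays, on the log2(signal + 16) scale. With that centring 13.8% of all probe sets rose and 18.2% fell. The other 7 calls held in every alternative at the threshold of 0.05 that tested them.

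**Figure D3:**
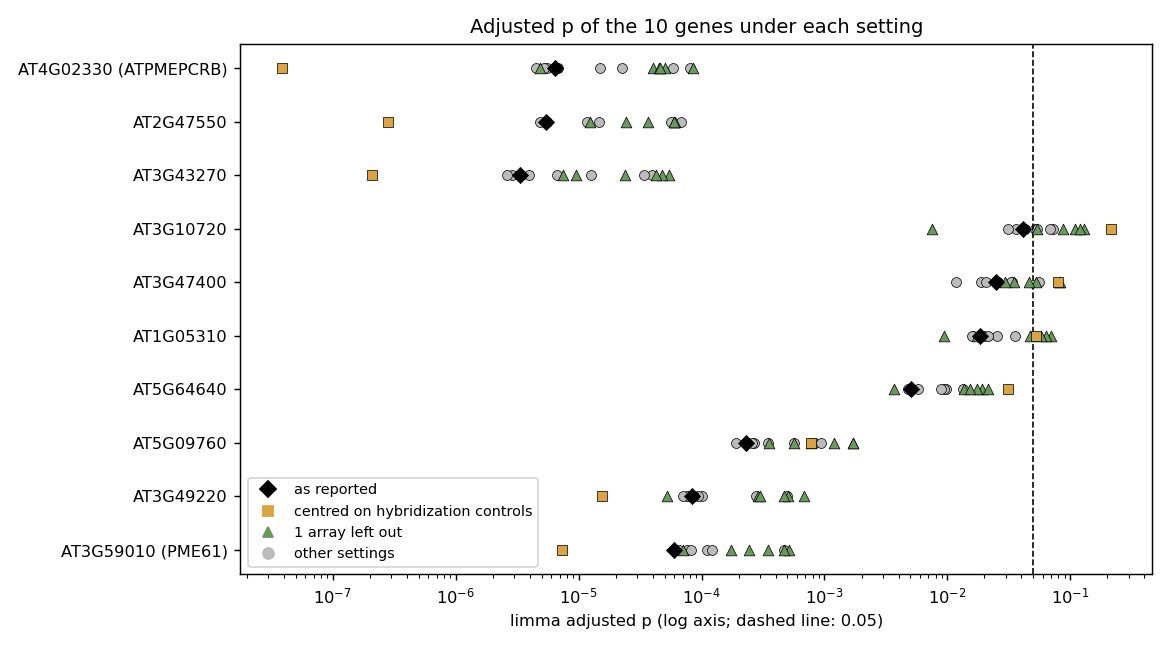
Limma adjusted p (log axis, dashed line at 0.05) of the 10 pectin methylesterase genes as reported (diamonds), with arrays centred on hybridization controls (squares), with 1 array left out (triangles) and under the other settings (circles). AT3G10720, AT3G47400 and AT1G05310 have points on both sides of the line, and the other 7 genes stay left of it.

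Among the 6 tested members that did not pass, AT5G53370 (PMEPCRF) was the only one to read above 100 on every array. It read 216, 234 and 229.9 on the ASL9-ox arrays, against 257, 298 and 239.9 on the wildtype arrays. The groups did not overlap, but the log2 fold change was only -0.21 (95% interval -0.41 to -0.004, limma adjusted p = 0.0947). AT5G19730 differed mainly within ASL9-ox, where it read 49.1, 73.3 and 31.2, against 57.2, 51.0 and 57.3 in wildtype. Its SD was 21.1 in ASL9-ox and 3.57 in wildtype (n = 3 each), and its log2 fold change was -0.13 (95% interval -0.57 to 0.31).

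The other 4 were dim. AT1G23200 read 16.2 to 21.4 in ASL9-ox and 11.7 to 17.5 in wildtype, and AT3G05620 read 17.8 to 28.3 in ASL9-ox and 14.9 to 17.6 in wildtype. AT2G43050 (ATPMEPCRD) read 11.0 to 16.05 in ASL9-ox and 8.83 to 11.4 in wildtype. AT3G06830 stayed between 1.96 and 7.997 in ASL9-ox and between 5.81 and 11.6 in wildtype. Their 95% intervals ran at most from -0.55 to 0.49 on the log2(signal + 16) scale, and each held 0. At such signals the added 16 keeps any fall small on this scale. The intervals therefore do not limit how far the transcripts themselves changed. For AT3G06830 the estimate was -0.21 with 16 added and -0.69 with a pseudocount of 1.

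**Figure D4:**
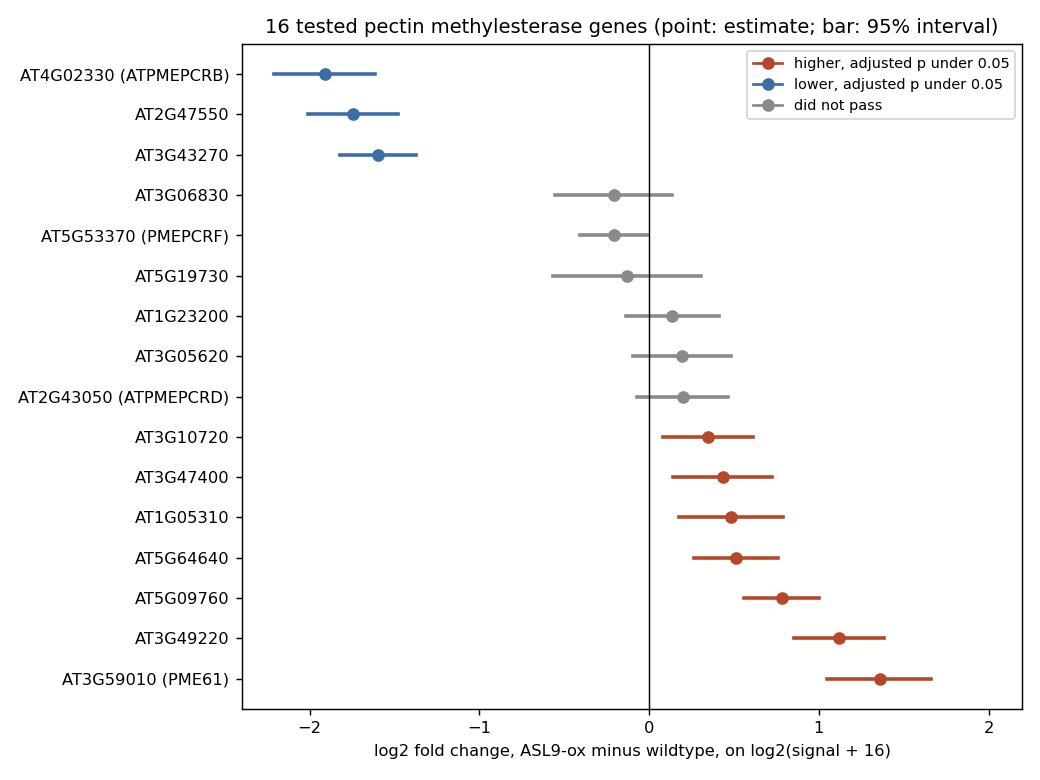
Log2 fold change of the 16 tested pectin methylesterase genes, ASL9-ox minus wildtype on log2(signal + 16), with 95% intervals. The 3 falls, from -1.91 to -1.60, stand apart from the rest, while the rises form a graded series from 0.35 to 1.36.

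Of the 23 members that could not be tested, 22 read between 0.0997 and 12.6 on the ASL9-ox arrays and between 0.187 and 9.59 on the wildtype arrays, and the groups overlapped for all 22. Without the filter on dim probe sets, limma's adjusted test called 0 of the 23 members, where 29.3% of all probe sets passed. Before adjustment limma also gave 0 members under 0.05. The exception in brightness was AT3G60730. It read 72.4 on wildtype replicate 2, against 0.303 to 0.802 on the 3 ASL9-ox arrays and 0.347 and 0.497 on the other two wildtype arrays. Its signal thus came from a single array.

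Wildtype replicate 2 also stood apart in the 3 measured seed markers. PAP85, a seed storage protein gene, read 806 there, OLEO3, a seed oil body protein gene, 504, and AT3G15670, of the late embryogenesis abundant proteins, 309. On the 3 ASL9-ox arrays the sum of the 3 was 12.5 to 14.1, and on the other two wildtype arrays 8.65 and 11.4. Their part in the AT3G60730 value was not tested. Without wildtype replicate 2, 6 members rose and 3 fell, where 20.1% of all probe sets rose and 14.7% fell.

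The labelled tissue, aerial parts, was set against markers of other tissues. Of 11 root and root hair markers 3 were measured. PYK10, a beta-glucosidase of roots and hypocotyls, read 408 to 453 in ASL9-ox, against 2847 to 3168 in wildtype, while the root hair expansins EXPA7 and EXPA18 stayed at or below 13.3 on all 6 arrays. The summed signal of the 3, nearly all of it that of PYK10, was 414 to 470.1 in ASL9-ox and 2851 to 3186 in wildtype. PYK10 fell, as did 3 pectin methylesterases, and the part of root tissue in their fall was not tested. In whole tissue, fewer cells of a type and less RNA per cell cannot be told apart. The 2 measured pollen markers summed to at most 5.31 in ASL9-ox and 10.2 in wildtype. The guard cell regulator FMA, the only one of 4 guard cell markers measured, rose to 66.1 ± 2.50 in ASL9-ox, against 43.5 ± 8.41 in wildtype (SD, n = 3 each), and 0 of 7 xylem markers were measured.

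The family acts together with inhibitors, processing proteases and pectin-cutting enzymes, and 149 such genes were listed by locus from general knowledge of these families. Of the 89 with a probe set of their own, 60 were tested, of which 22 rose and 16 fell. That is 36.7% and 26.7%, where 24.6% and 17.0% of all probe sets did so.

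Inhibitors of pectin methylesterase, small wall proteins that bind the enzyme and block it, moved in both directions. Of 26 listed 16 were measured and 11 tested, and 5 rose and 4 fell. That is 45.5% and 36.4% of few genes, where 24.6% and 17.0% of all probe sets did so. AT1G62760 fell to 2.44, 12.2 and 1.11 in ASL9-ox, against 94.4, 120.1 and 151 in wildtype (log2 fold change -2.72 ± 0.20, SE, limma adjusted p = 1.04e-05). A second probe set paired with that gene read at most 3.75 on every array and was too dim to be tested. AT1G62770 read 12.6 ± 0.630 in ASL9-ox and 56.4 ± 1.82 in wildtype, and AT1G23205 36.2 ± 14.1 in ASL9-ox and 136 ± 10.2 in wildtype (SD, n = 3 each). In the opposite direction AT5G62360 rose to 265 ± 98.4, against 65.5 ± 10.1 in wildtype, with 1 ASL9-ox array at 153 and the other two at 302 and 339. AT5G20740, singled out after its values were seen, also rose, with a log2 fold change of 1.33 ± 0.11 (SE, limma adjusted p = 1.63e-05). This rise was nearly as large as the fall of AT1G62770, at -1.34. Of the inhibitor changes of at least 2-fold on the log2(signal + 16) scale, 2 were rises and 3 were falls. The median log2 fold change of the 11 was 0.12.

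SBT3.5 (AT1G32940), a subtilase known to process PME17, fell more than any tested pectin methylesterase on the log2(signal + 16) scale. It read 36.8, 30.2 and 33.98 on the ASL9-ox arrays, against 385, 461 and 531 on the wildtype arrays, a log2 fold change of -3.25 ± 0.12 (SE, limma adjusted p = 1.24e-07). The level of PME17 itself was not analysed here. ARA12 (AT5G67360), a subtilase needed for the release of seed mucilage, fell to 588 ± 59.5 in ASL9-ox, against 881 ± 56.8 in wildtype. S1P (AT5G19660), a Golgi-located subtilase known to act on pectin methylesterase precursors, did not pass, at 70.6 ± 3.74 in ASL9-ox and 63.7 ± 2.45 in wildtype (SD, n = 3 each, limma adjusted p = 0.265).

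Polygalacturonases, which cut demethylesterified homogalacturonan by hydrolysis, were tested for 21 of 45 listed genes, and 9 rose and 4 fell. Against 24.6% of all probe sets 42.9% rose, and the 19.0% that fell lay near the 17.0% of all probe sets. AT5G14650 fell to 2.77, 3.45 and 2.71 in ASL9-ox, against 101, 113 and 114 in wildtype (log2 fold change -2.72 ± 0.09, SE, limma adjusted p = 8.13e-08). The largest rises on the log2(signal + 16) scale were those of AT4G23820, at 454 ± 19.9 in ASL9-ox and 186 ± 16.8 in wildtype, AT1G10640, at 125 ± 35.5 in ASL9-ox and 48.5 ± 2.77 in wildtype, and AT3G16850, at 321 ± 39.9 in ASL9-ox and 150.1 ± 9.12 in wildtype (SD, n = 3 each). By the ratio of mean signals AT1G23460, singled out after its values were seen, rose by as much, at 47.3 ± 2.64 in ASL9-ox and 18.6 ± 1.66 in wildtype. The annotation paired its probe set with this gene alone, but the probe set's name ends in _s_at. On ATH1 that suffix marks probes shared by several transcripts, so the signal cannot be credited to AT1G23460 alone. The median log2 fold change of the 21 was 0.28.

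Pectate lyase-like genes, whose enzymes cut the same polymer by elimination, were tested for 15 of 26 listed, and 8 rose and 3 fell. Here 53.3% rose, against 24.6% of all probe sets, and the 20.0% that fell lay near the 17.0% of all probe sets. The 4 with the largest changes on the log2(signal + 16) scale all rose. By the ratio of mean signals the fall of AT3G27400, singled out after its values were seen, was of a similar size, at 29.1 ± 4.24 in ASL9-ox and 98.5 ± 7.58 in wildtype (3.38-fold higher in wildtype). AT3G07010 read 267 ± 16.6 in ASL9-ox and 55.9 ± 16.3 in wildtype, AT1G67750 180.4 ± 19.9 in ASL9-ox and 46.6 ± 16.9 in wildtype, and AT5G48900 329.6 ± 45.1 in ASL9-ox and 104 ± 19.0 in wildtype (SD, n = 3 each). AT5G63180 read 358, 447 and 417 in ASL9-ox, against 169.9, 82.9 and 71.5 in wildtype, where replicate 1 was the highest. Their log2 fold changes lay between 1.52 and 2.00, and the median over the 15 was 0.40.

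Lists with few measured genes gave single values, too few to set against the 17.0% of all probe sets that fell. Of 5 tested pectin acetylesterases 1 fell, AT3G05910, at 298 ± 34.4 in ASL9-ox and 419 ± 10.9 in wildtype. Of 3 tested pectin synthesis genes, out of 29 listed, GAUT15, of a family of galacturonosyltransferases, fell to 42.0 ± 0.996 in ASL9-ox, against 57.2 ± 0.656 in wildtype. Of 2 tested wall-sensing receptor kinases THE1 fell to 109.7 ± 6.67 in ASL9-ox, against 154 ± 5.94 in wildtype, and FER, at 469 ± 25.6 in ASL9-ox and 486 ± 25.1 in wildtype, did not pass (SD, n = 3 each, limma adjusted p = 0.613).

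**Figure D5:**
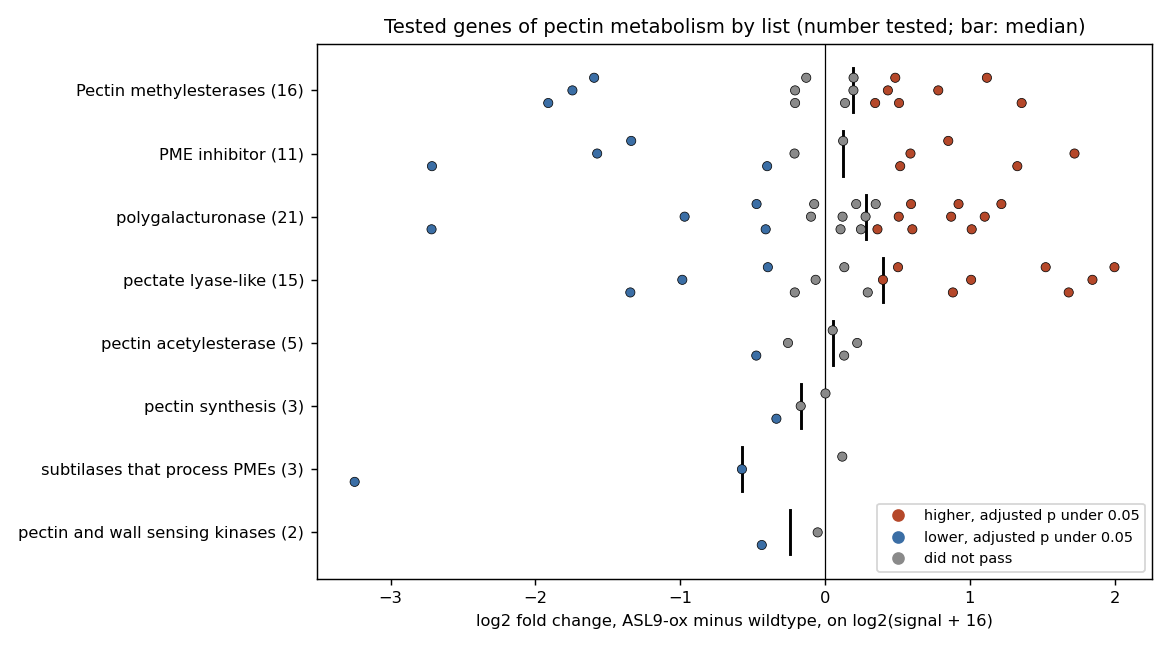
Log2 fold change, ASL9-ox minus wildtype on log2(signal + 16), of each tested gene of the pectin methylesterases and of 7 lists of related genes (points, coloured by call), with the number tested and the median (bar) per list. Pectin methylesterases, inhibitors, polygalacturonases and pectate lyase-like genes each hold both rises and falls, and the farthest point to the left is SBT3.5 at -3.25.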

How the data were processed

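RNA of 6 samples was hybridized to 1 ATH1 array each. The deposited intensity values came from MAS5 and GCOS, per the submitters' processing notes, which state no versions. The deposited intensities were linear, with a mean near 100 on every array once the lowest and highest 2% were set aside, and a change common to all transcripts cannot be seen in them.

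Probe sets were named through the platform annotation and RefSeq's TAIR10.1 gene table (13513 paired with 1 gene, 13484 of them matched, 503 paired with several, 8794 unnamed). For a gene with several, that with the highest mean was used. The 64 control probe sets and the dimmest 25% by mean log2 value were left out. The comparison used lmFit and eBayes of limma 3.58.1 under R 4.3.3 (intensity trend, two-sided, prior of 5.11 degrees of freedom), after a check on simulated data. Members and lists were chosen with earlier results of these data known. All tested members are named, and per list up to 4 genes past the threshold with the largest change. AT3G60730, EXPA7, EXPA18, OLEO3, AT3G15670, S1P and FER were named after their values were seen. Alternatives changed the normalization, pseudocount, filter, variance prior, probe set rule, threshold, replicate block and arrays used. Figures were drawn with matplotlib 3.10.9.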

Additional observations from a re-analysis of the deposited data

How the results depend on the processing

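All alternatives were planned with earlier results of these data known. The 3 falls held under every alternative that tested them, and 3 members fell when any 1 array was left out. The count of rises, 7 as reported, was 4 with centring on the hybridization controls and 4 at a threshold of 0.01; with the dimmest 50% of probe sets left out it was 3, since fewer members were tested. With any single array left out there were 4 to 6 rises, the lowest without wildtype replicate 3. For the related genes it gave 18 to 23 rises, against 22, and 15 to 16 falls, against 16. Among the alternatives, the shares of all probe sets that rose and fell were worked out for only some. They were 13.8% and 18.2% with centring on the hybridization controls, and 20.1% and 14.7% without wildtype replicate 2. The counts under other alternatives cannot be set against such shares. Same-numbered arrays deviated from their group means with correlations of -0.12, -0.06 and 0.02, some arrays correlated better with another number than with their own, and the numbers were not treated as pairs; with the replicate block 6 members rose and 3 fell, AT3G47400 missing the threshold (limma adjusted p = 0.0558). AT5G19730, which did not pass, ran from -0.36 to 0.10 with 1 array left out, turning its sign without ASL9-ox replicate 3. Of 262 values of single members under alternatives, 239 kept direction and side of the threshold, 22 lost a call and 1 changed sign. The cause was not tested. Signals below 16 limit what can be said of the dim members.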

Other observations

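Several pectin methylesterase genes lie side by side in the genome. In the gene order of RefSeq's TAIR10.1 table, 12 pairs of the 58 listed loci had no protein-coding gene between them, and both genes were measured in 5 of these pairs. In 3 of the 5 both genes were too dim to be tested. ATPMEPCRB (AT4G02330), which fell, lies next to AT4G02320, which read at most 0.965 in ASL9-ox and 1.17 in wildtype. AT4G02300, which has 1 gene between it and AT4G02320, read at most 4.26 in ASL9-ox and 3.49 in wildtype. In the fifth pair AT3G05620, tested without passing, lies next to AT3G05610, which read at most 4.95 in ASL9-ox and 1.62 in wildtype. AT3G47400, which rose, has 1 gene between it and the inhibitor gene AT3G47380, which also rose. The inhibitor gene read 39.9 ± 3.16 in ASL9-ox, against 15.04 ± 2.61 in wildtype (SD, n = 3 each, limma adjusted p = 0.000205). The rise of AT3G47400 was at signals below 16, and its call was lost under 5 of 15 alternatives. AT1G23200, which did not pass, has 1 gene between it and the inhibitor gene AT1G23205, which fell. These genes were singled out after their values were seen, and no test of neighbouring genes was made.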
